A study of Mus musculus with 6 samples.

Results

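The transforming growth factor beta (TGF-beta) and activin genes described here are 10 genes chosen by symbol: the ligand genes Tgfb1, Tgfb2, Tgfb3, Inhba and Inhbb, the genes of the secreted binding proteins Fst and Fstl1, the target gene Tgfbi, and the feedback genes Skil and Smad7. Each symbol matched 1 row of the 32285 genes counted, so all 10 genes were found. They were followed in single cells of mouse dorsal skin in 6 libraries taken at 0, 4 and 16 h and at 2, 4 and 6 d, with 1 library each, after the hair was removed by shaving and waxing to start regrowth. All libraries came from wildtype FVB males of postnatal day 55 to 57. Each library held cells of 2 mice, digested separately and then combined in equal numbers, so the mice cannot be told apart and a pair of time points cannot be tested against each other. The label of the 0 h library, unlike the others, does not mention depilation.

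TGF-beta and activin ligands are secreted dimers that bind pairs of serine/threonine kinase receptors and act through SMAD2 and SMAD3. Follistatin, the product of Fst, binds activins and keeps them from their receptors, while SMAD7 and SKIL are induced by the pathway and dampen it. In the hair follicle (HF), TGF-beta 2 from the dermal papilla is known to help start the growth of hair germ cells, and TGF-beta signals are also known for holding epithelial stem cells at rest.

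After filtering, 50502 cells were kept, 6520 to 11032 per library, with a median of 6037 to 10531 UMIs (unique molecular identifiers, 1 per captured mRNA molecule) per cell. Pairs of libraries shared 7 to 47 barcodes, at most 0.465% of the smaller library. Cells were clustered without the 10 genes and named from marker genes, and each name stands for "like" that type: the outer bulge clusters OB1, OB2 and OB3, the inner bulge IB, the inner root sheath clusters IRS1, IRS2 and IRS3, the basal and suprabasal upper HF (uHF.B, uHF.SB), the suprabasal interfollicular epidermis (IFE.SB), sebaceous gland (SG), dermal papilla and fibroblasts (DP), melanocytes, T cells and Langerhans cells. The largest cluster scored highest for basal interfollicular epidermis, but none of those markers was among its top 10 genes, so it is called IFE cluster 0. uHF.SB includes a cluster led by the epidermal genes Flg and Krt1. IRS3 was led by Pinlyp and Wfdc18 and had no keratin gene among its top 10, while IRS1 was led by Krt25 and Krt71. OB1 was made of 3 clusters in changing proportions: cluster 5, led by Krt24, held 84.4% of OB1 cells at 0 h and 9.54% at 4 d, cluster 1, with Sfrp1 and Col14a1 among its leading genes, held 15.2% and 90.3%, and cluster 10, led by Cpa4, held 49.2% at 4 h. The counts of a type in a library were summed, and a level is given in CPM, the UMIs of a gene per 1000000 UMIs of that sum, with a 95% Poisson interval that covers counting error only. Sums of fewer than 20 cells were not used, and 10 of the 16 types had enough cells in every library. In such sums, fewer cells expressing a gene and less mRNA per cell cannot be told apart. The DP sums differed in their markers. At 0 h, 4 d and 6 d Col1a1 was at 32.8, 2707 and 42.2 CPM, and Dcn at 0, 966 and 0 CPM. At 0 h Vim alone made up 8200 of the 8610 CPM of the 8 DP markers. DP values over time may thus compare unlike mixes of cells, which was not tested.

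Tgfb2 and Inhba were the ligand genes with a single type far above all others by median, OB3 and DP, and the 250 bases upstream of their transcription starts (RefSeq, GRCm38.p6) are shown to give the sequence at the start of each gene. Both strands were searched for 4 motifs, and matches are in capitals. Those of AP-1 and CREB factors were written TGANTCA and TGACGTCA. Those bound by SMAD proteins were the palindrome GTCTAGAC and, as the shorter and more frequent site, CAGACA. They are descriptions of the letters only.
Tgfb2, chr1:186705990-186706239, minus strand: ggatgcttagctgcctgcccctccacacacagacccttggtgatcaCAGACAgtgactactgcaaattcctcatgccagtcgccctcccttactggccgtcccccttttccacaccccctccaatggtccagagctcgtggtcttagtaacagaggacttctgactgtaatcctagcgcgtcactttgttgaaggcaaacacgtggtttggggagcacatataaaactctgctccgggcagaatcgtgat
Inhba, chr13:16011601-16011850, plus strand: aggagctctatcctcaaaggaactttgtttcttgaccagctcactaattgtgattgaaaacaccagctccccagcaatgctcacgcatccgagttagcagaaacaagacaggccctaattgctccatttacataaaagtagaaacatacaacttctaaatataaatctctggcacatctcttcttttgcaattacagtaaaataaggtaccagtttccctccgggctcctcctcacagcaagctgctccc
The Tgfb2 stretch held 1 CAGACA, a match that 17.1% of the 32851 upstream stretches of the same length hold, and the Inhba stretch held none of the 4 motifs. For TGANTCA, TGACGTCA and GTCTAGAC the shares of all stretches were 6.75%, 1.55% and 0.167%.

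Median levels over libraries placed Tgfb1 highest in T cells, Tgfb2 and Tgfb3 in OB3, Inhba in DP, Inhbb in IRS3, Fst in OB3 and IB, Fstl1 in DP, Tgfbi in IFE cluster 0, Skil in Langerhans cells and Smad7 in T cells.

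**Figure D1:**
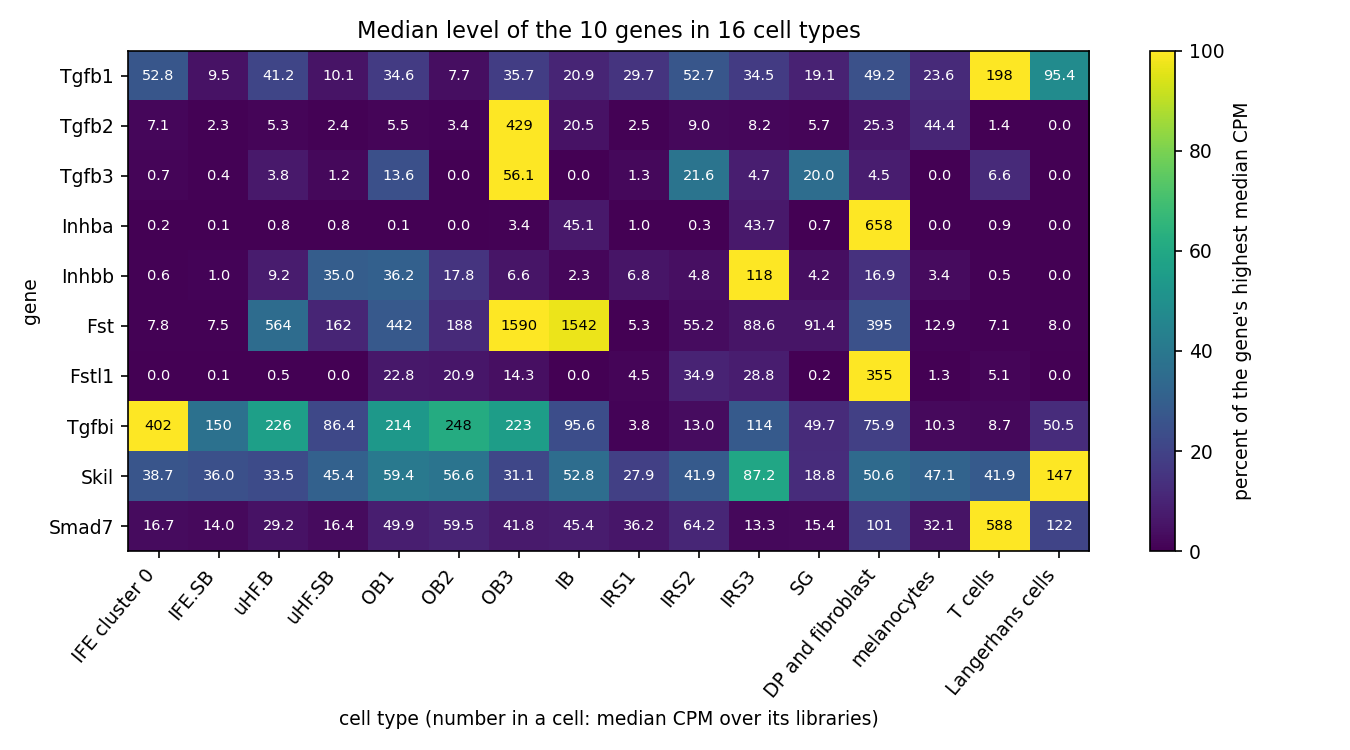
Median level of each gene (rows) in each cell type (columns); the number in a cell is the median CPM over the libraries with at least 20 cells, and the colour is that median as a percent of the gene's highest. Tgfb2 reached 429 CPM in OB3, Inhba 658 CPM in DP and Smad7 588 CPM in T cells.

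Tgfb1 (chr7:25687002-25705077, mm10), the most widely made of the TGF-beta ligands, was measured in all types and was highest in T cells. Its levels there were 203, 193, 171, 225, 173 and 258 CPM from 0 h to 6 d. All 6 libraries lay above those of every epithelial type. Langerhans cells followed at 68.1 to 161 CPM, IFE cluster 0 at 37.0 to 64.9 CPM and uHF.B at 32.1 to 43.1 CPM. T cells were higher than IFE cluster 0 in 6 of 6 libraries, by 1.61 ± 0.22 on the log2 scale (SE; edgeR's quasi-likelihood test with the library as block, adjusted p = 1.8e-09). Suprabasal IFE.SB cells had less Tgfb1 than IFE cluster 0 in 6 of 6 libraries (-2.22 ± 0.22, adjusted p = 2.2e-13). OB2 held less than OB1 in 6 of 6 libraries (-1.92 ± 0.33, adjusted p = 1.0e-05). In these contrasts the replicates are libraries of different time points, and the spread, shared over all types in a joint fit, includes changes over time.

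Tgfb2 (chr1:186622792-186705989) was a gene of OB3. OB3 is the outer bulge cluster that also carried Pthlh, Grem1 and Wif1, the markers it was named from. Tgfb2 levels in OB3 were 469, 38.2, 211, 399, 488 and 460 CPM from 0 h to 6 d, with intervals of 398 to 549 CPM at 0 h and 18.3 to 70.2 CPM at 4 h. The 4 h library stood apart from the other libraries at a level 12.3-fold under 0 h, the 16 h library lay between, and the levels from 2 d on overlapped with 0 h. The share of OB3 cells with a Tgfb2 UMI, after thinning each cell to 2000 UMIs, was 55.6% at 0 h, 3.64% at 4 h, 26.7% at 16 h and 54.2% at 4 d. In T cells, with a median of 2021 to 2702 UMIs per cell, that share was 0 to 0.559%. Cells with fewer than 2000 UMIs were left out of all such shares. OB1 and OB2 held 3.41 to 15.1 CPM and 0 to 10.1 CPM. OB3 exceeded OB1 in 6 of 6 libraries, by 5.69 ± 0.49 on the log2 scale (edgeR, adjusted p = 8.4e-14).

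The 4 h value of OB3 rests on 10 Tgfb2 UMIs in 56 cells, and OB3 was a single cluster in every library. Melanocytes were the other type above 10 CPM in all 6 libraries, with 261, 73.9, 25.5, 40.1, 13.0 and 48.7 CPM from 0 h to 6 d. There the 0 h library was highest, and its interval, 160 to 404 CPM, did not overlap with that of any later library. Melanocytes exceeded IFE cluster 0 in 6 of 6 libraries (1.99 ± 0.54, adjusted p = 0.0017). DP, the source named in the background above, held 16.4, 40.4 and 25.3 CPM at 0 h, 4 d and 6 d, the libraries with enough DP cells.

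Tgfb3 (chr12:86056745-86079041) shared the OB3 maximum and had a second, later source in OB1, where cluster 1 was highest. OB3 levels were 54.4, 3.82, 7.69, 57.7, 113 and 105 CPM, lowest at 4 h with 1 UMI and at 16 h with 4 UMIs. OB1 levels were 0.551, 0.862, 4.20, 23.0, 34.9 and 24.0 CPM from 0 h to 6 d. The OB1 intervals of the 3 later libraries lay above those of the 3 earlier ones without overlap, where 0 h and 4 h rest on 1 and 2 UMIs. Within OB1 cluster 1 the levels were 3.24, 4.26, 9.86, 28.3, 36.3 and 28.4 CPM, so the later values were also higher within 1 cluster. Cluster 5, led by Krt24, was below cluster 1 in every library, with 0, 0, 1.40, 3.12, 9.38 and 11.4 CPM from at most 17 UMIs. Cluster 10 had 0 CPM at 4 h, 16 h and 2 d and 22.1 CPM at 6 d. The part of the make-up in the OB1 values was not tested. uHF.B went from 2.54 CPM at 0 h to 12.1 CPM at 4 d, 4.77-fold higher, and SG from 1.83 CPM at 4 h to 29.2 CPM at 4 d. OB3 exceeded OB1 in 6 of 6 libraries (1.92 ± 0.42, adjusted p = 9.8e-04), and OB2, where 5 of 6 libraries had 0 Tgfb3 UMIs, was below OB1. The OB2 difference rests on 2 UMIs in all, and no fold is given.

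**Figure D2:**
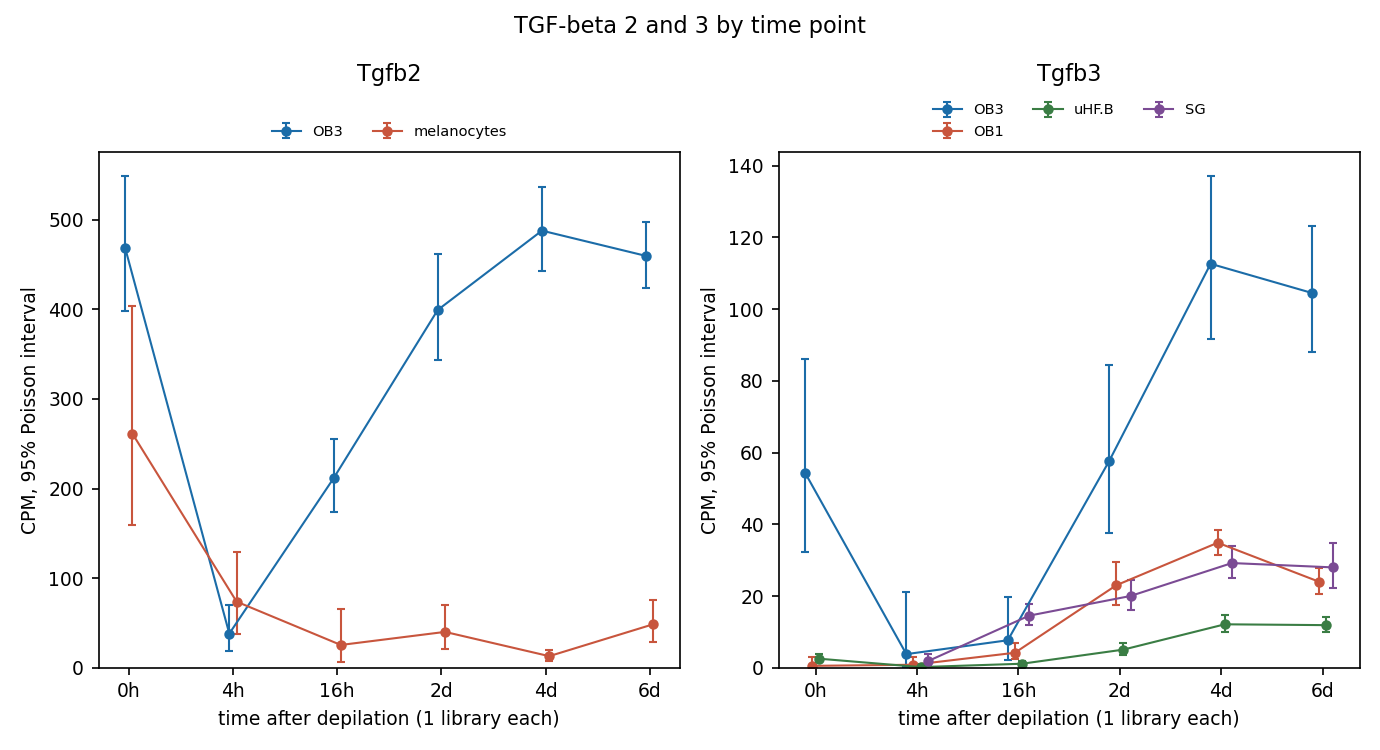
Tgfb2 (left) and Tgfb3 (right) in CPM by time point, 1 library each; points are sums over the cells of a type and bars are 95% Poisson intervals. In OB3, Tgfb2 was at 469 CPM at 0 h, 38.2 CPM at 4 h and 488 CPM at 4 d, and Tgfb3 in OB1 went from 0.551 to 34.9 CPM.

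Inhba (chr13:16011851-16031621) and Inhbb (chr1:119415465-119422248) encode the beta A and beta B subunits, whose dimers are the activins. Inhba was highest in DP, with 574, 822 and 658 CPM at 0 h, 4 d and 6 d (intervals 400 to 798, 740 to 911 and 520 to 821 CPM). The 3 intervals overlapped. The DP values come from 20, 126 and 24 cells, and at 0 h 2 of 15 DP cells thinned to 2000 UMIs (13.3%) had an Inhba UMI, against 81 of 111 (73.0%) at 4 d. The other 3 libraries had 9 to 17 DP cells and were not used. IFE cluster 0 held 0.0783 to 0.472 CPM, and the DP level exceeded it in 3 of 3 libraries (log2 12.02 ± 0.80, edgeR, adjusted p = 2.8e-18, with 29 Inhba UMIs in IFE cluster 0 over all libraries). No Inhba UMI was found in melanocytes or Langerhans cells in any library.

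Within a type, epithelial Inhba was highest at 4 h or 16 h in IB, uHF.B and OB1, and later in IRS3. IB cells had 5.62 CPM at 0 h (1 UMI), 84.5 CPM at 4 h, 143 CPM at 16 h and 0 CPM at 6 d. Both the 4 h and 16 h libraries thus stood above 0 h and 6 d without overlap of intervals. The 2 d and 4 d libraries had 11 and 10 IB cells and were not used. In uHF.B the levels were 0.402, 14.2, 5.52, 0.13, 1.07 and 0.576 CPM, highest at 4 h. OB1 had 13.7 CPM at 16 h (52 UMIs) and 0 to 0.431 CPM in the other 5 libraries. Of these 52 UMIs, 49 were in cluster 10, which had 51.1 CPM at 16 h. The OB1 level at 16 h was at least 8.26-fold higher than at 0 h, where no UMI was found (3 counts taken as the floor of a library). IRS3, found from 2 d on, had 13.5, 43.7 and 96.4 CPM at 2 d, 4 d and 6 d, and exceeded OB1 in 3 of 3 libraries (6.23 ± 0.74, adjusted p = 4.3e-09).

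Inhbb was highest in IRS3, at 157, 118 and 89.0 CPM at 2 d, 4 d and 6 d. Its order over these libraries was the reverse of that of Inhba. DP had 164 CPM at 0 h from 10 UMIs, and 8.99 and 16.9 CPM at 4 d and 6 d. In OB1 Inhbb was 10.5, 6.46, 32.8, 39.6, 40.4 and 55.7 CPM from 0 h to 6 d. The intervals from 16 h on lay above those of 0 h and 4 h, and 6 d was 5.32-fold higher than 0 h. The make-up of OB1 changed over the same libraries. Within cluster 1 Inhbb was 29.1 CPM at 0 h (13.3 to 55.3), 42.2 CPM at 4 d with an overlapping interval and 65.5 CPM at 6 d (58.4 to 73.3). Within cluster 5 it was 6.68 CPM at 0 h (3.20 to 12.3), 10.9 CPM at 4 d (4.40 to 22.6) and 37.4 CPM at 6 d. The part of the make-up in the OB1 values was not tested. OB2 had 4.33 to 50.4 CPM, with its 3 highest values at 2 d, 4 d and 6 d, while uHF.B stayed between 8.09 and 10.8 CPM. OB1 exceeded IFE cluster 0 in 6 of 6 libraries (4.57 ± 0.51, adjusted p = 1.7e-11), as did uHF.B (3.15 ± 0.49, adjusted p = 6.2e-07). IRS3 exceeded OB1 in 3 of 3 libraries (1.79 ± 0.51, adjusted p = 0.0083).

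**Figure D3:**
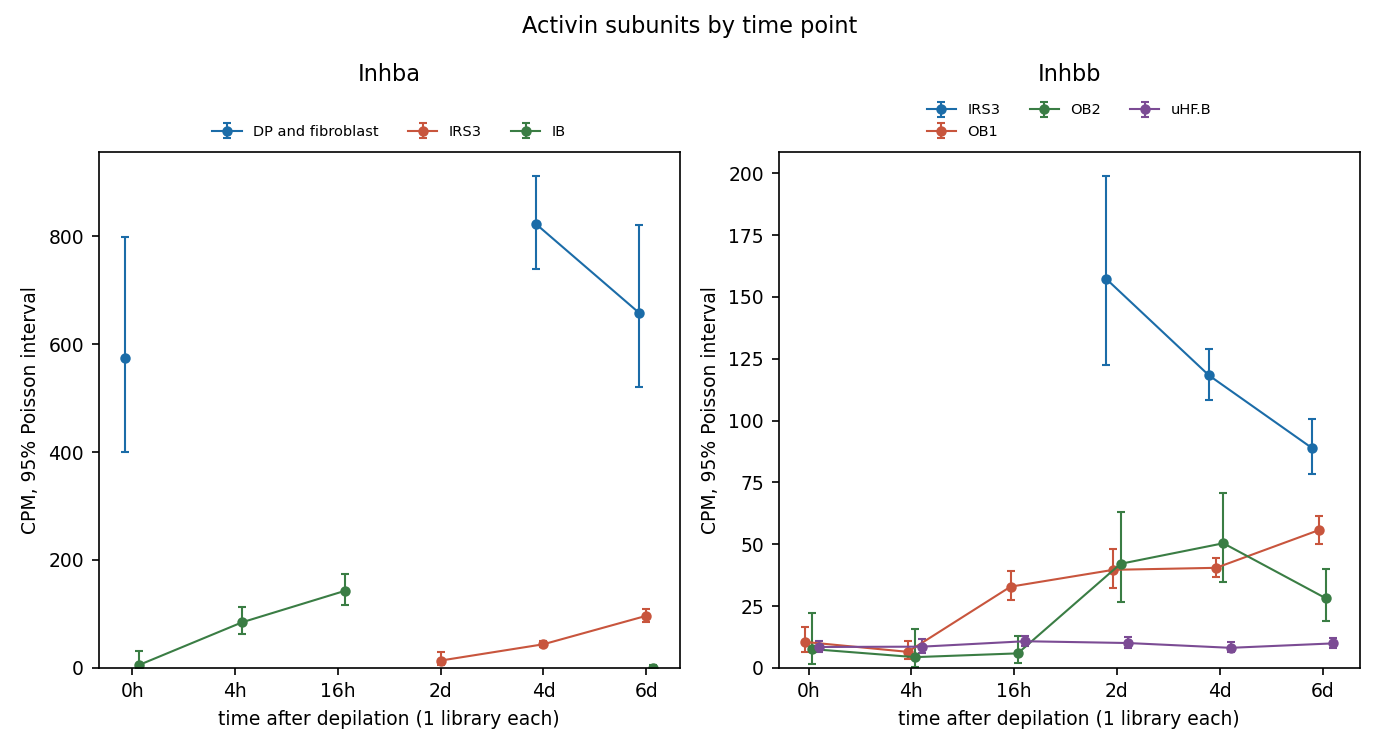
Inhba (left) and Inhbb (right) in CPM by time point with 95% Poisson intervals; a type is drawn only where the library had at least 20 of its cells. Inhba reached 822 CPM in DP at 4 d and 143 CPM in IB at 16 h, and Inhbb in OB1 was at 10.5 CPM at 0 h and 55.7 CPM at 6 d.

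Fst (chr13:114452290-114458951), the activin antagonist, was high in the bulge and upper HF and, at 4 d and 6 d, in DP (395 and 962 CPM). IRS1 had 5.01 to 5.56 CPM, and IRS2 and IRS3 had medians of 55.2 and 88.6 CPM. In OB3 its levels were 1751, 4869, 999, 1171, 1714 and 1467 CPM from 0 h to 6 d. In OB1 they were 500.4, 2885, 625, 384, 108 and 258 CPM, and in uHF.B 662, 1506, 225, 437, 466 and 725 CPM. The 4 h library was the highest of the 6 in each of these types. Against 0 h, the 4 h level was higher by 2.78-fold in OB3, 5.76-fold in OB1, 12.2-fold in OB2, 13.7-fold in IB and 2.28-fold in uHF.B. Of 11 types with enough cells in both libraries, 11 were higher at 4 h, and in 9 of them the intervals did not overlap. All types come from the same pair of libraries, and the share of all genes that did so was not counted. Past 2-fold either way at 4 h were 34.6% of all genes in OB1, 36.3% in uHF.B and 34.7% in IFE cluster 0. By 16 h the Fst levels in OB3 and uHF.B were under those of 0 h.

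The same comparison within the OB1 clusters gave 226 and 897 CPM for cluster 1 and 560 and 2279 CPM for cluster 5 at 0 h and 4 h. Cluster 10, of which 1 cell was found at 0 h, had 4456 CPM at 4 h. After thinning, 43.2% of OB1 cells had an Fst UMI at 0 h, 79.4% at 4 h and 13.5% at 4 d. The share in T cells was 0 to 1.65%. IFE cluster 0 had 4.27 to 23.6 CPM with 1.32% of cells positive at 0 h and 3.42% at 4 h, so its levels lie near those of T cells (1.57 to 11.3 CPM). How far free RNA sets these low values was not tested. OB1 and uHF.B exceeded IFE cluster 0 in 6 of 6 libraries, OB1 by 5.60 ± 0.52 on the log2 scale (adjusted p = 3.0e-14) and uHF.B by 5.94 ± 0.52 (adjusted p = 1.9e-14). OB3 exceeded OB1 in 6 of 6 libraries (1.62 ± 0.44, adjusted p = 0.012), and IRS3 was under OB1 in 3 of 3 (-2.34 ± 0.62, adjusted p = 0.004).

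Fstl1 (chr16:37776873-37836514), which encodes a secreted glycoprotein related to follistatin, was highest in DP, followed by IRS2 and IRS3 (medians of 34.9 and 28.8 CPM over 2 and 3 libraries) and the outer bulge types (14.3 to 22.8 CPM). DP had 49.2, 355 and 380 CPM at 0 h, 4 d and 6 d, the first from 3 UMIs, in sums that differed in their markers. OB1 had 28.7, 8.19, 6.83, 17.0, 46.0 and 59.5 CPM from 0 h to 6 d, lowest at 4 h and 16 h and highest at 4 d and 6 d. OB2 was likewise lowest at 4 h and 16 h and highest at 4 d and 6 d, with 8.65 to 62.4 CPM. No Fstl1 UMI was found in Langerhans cells, and uHF.B held 0 to 0.864 CPM. OB1 exceeded IFE cluster 0 in 6 of 6 libraries (7.28 ± 0.40, adjusted p = 4.0e-24, with 13 Fstl1 UMIs in IFE cluster 0 in all).

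**Figure D4:**
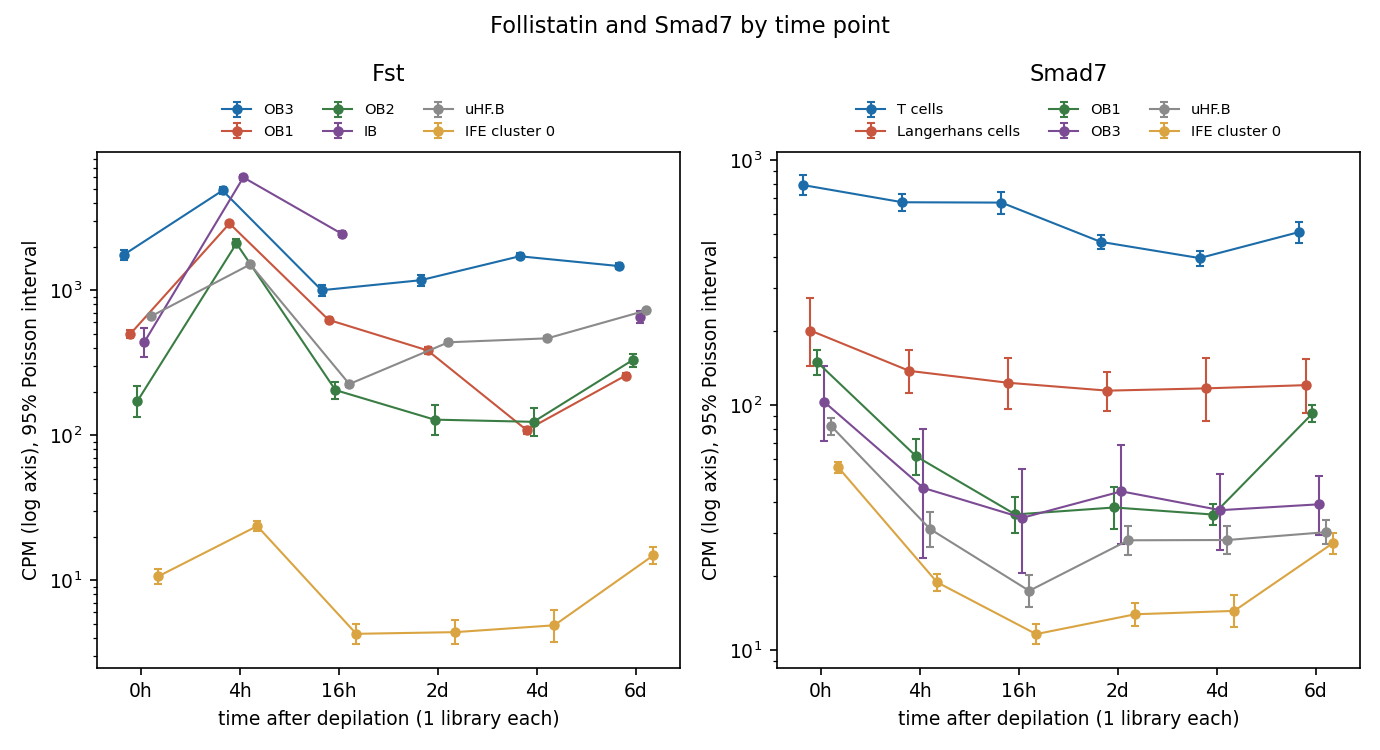
Fst (left) and Smad7 (right) in CPM on a log axis by time point, 1 library each, with 95% Poisson intervals. Fst at 4 h was above 0 h in every type drawn, for example 2885 against 500.4 CPM in OB1, and Smad7 in OB1 went from 149 CPM at 0 h to 35.7 CPM at 16 h.

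Tgfbi (chr13:56609523-56639562), which encodes an extracellular matrix protein induced by TGF-beta, was broadly present in basal epithelium. IFE cluster 0 had 423, 414, 472, 260, 390 and 361 CPM from 0 h to 6 d, and 40.3% to 62.6% of its thinned cells had a UMI. Suprabasal IFE.SB was lower in 6 of 6 libraries (-1.22 ± 0.27, adjusted p = 1.6e-04), and T cells (-5.61 ± 0.37, adjusted p = 3.3e-21) and melanocytes (-5.56 ± 0.43, adjusted p = 8.4e-18) were lower in 6 of 6 as well. OB1 had 481, 380, 232, 158, 116 and 196 CPM, while uHF.B had 260, 516, 318, 193, 145 and 119 CPM.

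The OB1 values move with the make-up of OB1. Cluster 5 alone had 567, 481, 403, 409, 440 and 376 CPM, and cluster 1 alone had 80.9, 239, 144, 107, 97.3 and 133 CPM. All of OB1 was 4.13-fold lower at 4 d than at 0 h, while cluster 5 had 567 and 440 CPM and the 2 intervals of cluster 1 overlapped. In Langerhans cells Tgfbi was 15.1 CPM at 0 h (3 UMIs), 243 CPM at 4 h and 186 CPM at 16 h, and 43.3 to 52.4 CPM later.

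**Figure D5:**
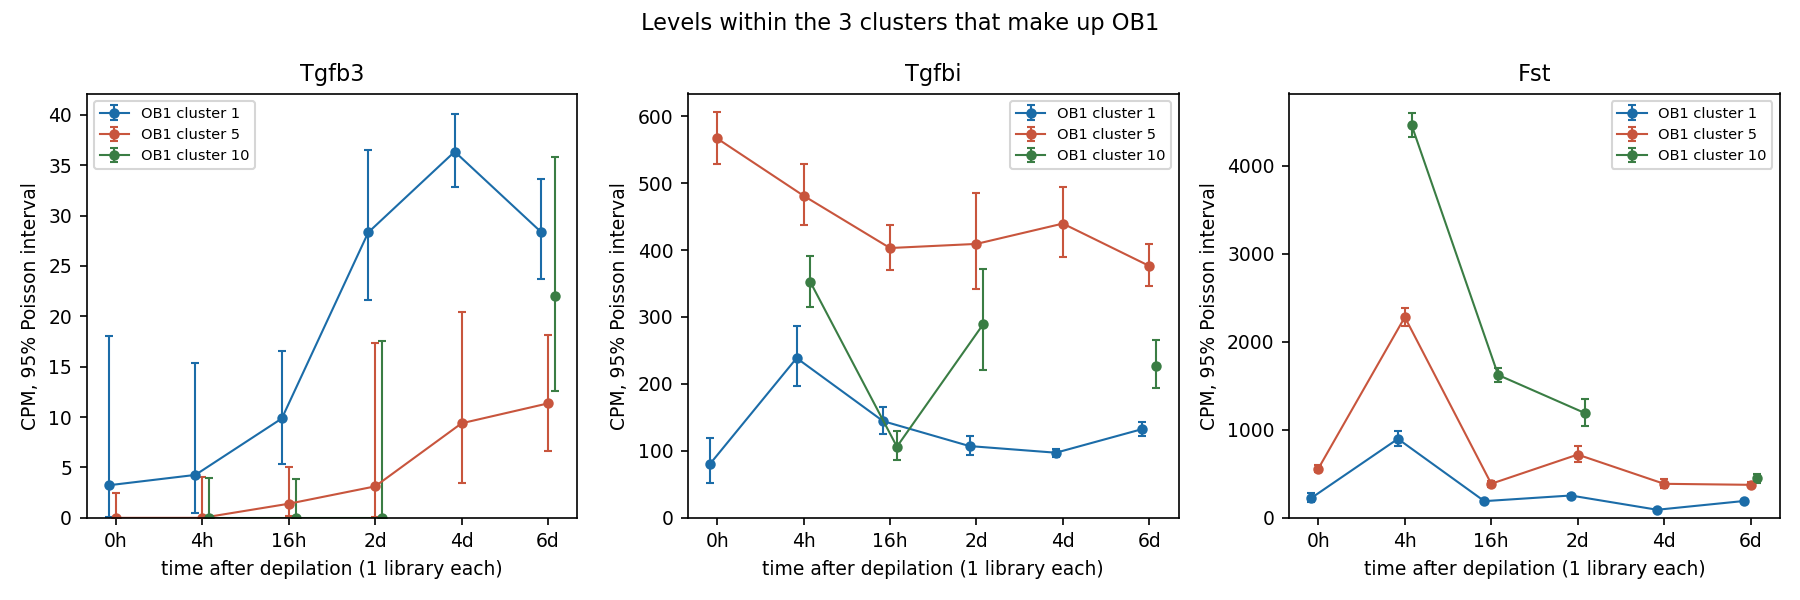
Tgfb3, Tgfbi and Fst in CPM in the 3 clusters that make up OB1, by time point, with 95% Poisson intervals and only sums of at least 20 cells. Tgfb3 within cluster 1 was at 3.24 CPM at 0 h and 36.3 CPM at 4 d, Tgfbi in cluster 5 stayed between 376 and 567 CPM, and Fst peaked at 4 h in clusters 1 and 5.

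Skil (chr3:31095058-31122577), a transcriptional corepressor of SMADs, was by whole type most abundant in Langerhans cells, with 186, 95.1, 162, 200.1, 70.6 and 132 CPM from 0 h to 6 d. These exceeded IFE cluster 0 in 6 of 6 libraries (1.77 ± 0.24, adjusted p = 2.5e-09). At 4 h, 10 of 11 types were lower than at 0 h, in 5 without overlap of intervals, for example OB1 at 33.2 against 70.5 CPM and uHF.B at 24.0 against 57.6 CPM. T cells were the other type, at 46.5 against 19.3 CPM with overlapping intervals. The types share these libraries, and the share of all genes lower in as many types was not counted. Within T cells, the cluster led by Gzmc, Ltb, Il7r and Icos had 115 to 293 CPM of Skil from 4 h on, and the other T cell cluster, with Trdc and Cd3g, 6.45 to 31.5 CPM. The Gzmc cluster alone was above Langerhans cells at 4 h, 16 h, 4 d and 6 d and below them at 2 d. OB3 was lower than OB1 in 6 of 6 libraries (-0.95 ± 0.28, adjusted p = 0.023).

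Smad7, the inhibitory SMAD that targets activated receptors, was highest in T cells at 789, 671, 669, 463, 397 and 507 CPM. The first 3 libraries exceeded the last 3 without overlap of intervals. After thinning, 49.6% to 73.2% of T cells had a Smad7 UMI, and 1.90% to 9.94% of IFE cluster 0 cells. T cells exceeded IFE cluster 0 by 4.49 ± 0.21 (adjusted p = 2.0e-30) and Langerhans cells did so by 2.48 ± 0.20 (adjusted p = 6.7e-18), both in 6 of 6 libraries. In OB1, uHF.B and IFE cluster 0 the 0 h library stood highest. OB1 had 149, 61.6, 35.7, 38.1, 35.7 and 92.2 CPM, uHF.B 82.0, 31.1, 17.4, 28.0, 28.1 and 30.2 CPM, and IFE cluster 0 55.7, 18.9, 11.6, 14.0, 14.4 and 27.3 CPM. The levels at 16 h were under those at 0 h by 4.18-fold, 4.70-fold and 4.80-fold.

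Smad7 was lower than at 0 h in 10 of 11 types at 4 h, 11 of 11 at 16 h and 10 of 10 at 2 d, the last without overlap of intervals in any type. The types share these libraries, and the share of all genes was not computed for these counts. In the 10 types found in every library Smad7 was lower at 4 h in 10 of 10. Of the 3823 genes with at least 10 CPM at 0 h in each of these types, 6.85% did the same. Tgfbi and Skil, the other genes above that level, were lower in 4 and 9 of 10 types. In OB1 the decrease stood within both main clusters, from 93.8 to 26.8 CPM in cluster 1 and from 162 to 42.0 CPM in cluster 5 between 0 h and 16 h.

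Against 0 h, the genes past 2-fold (on CPM + 1, among genes with at least 10 CPM in 1 of both libraries) were counted in OB1, uHF.B and IFE cluster 0. In OB1 at 4 h 5 of 7 were past it, with Fst higher and Tgfb1, Fstl1, Skil and Smad7 lower, where 34.6% of all genes were. In uHF.B at 4 h it was 4 of 6, with Inhba and Fst higher and Skil and Smad7 lower (all genes, 36.3%). In IFE cluster 0 at 4 h it was 4 of 6, with Fst higher and Tgfb2, Skil and Smad7 lower (all genes, 34.7%). At 4 d in OB1 it was 5 of 8, with Tgfb3 and Inhbb higher and Fst, Tgfbi and Smad7 lower (all genes, 34.5%). Within the OB1 clusters, Inhbb at 0 h and 4 d (29.1 and 42.2 CPM in cluster 1, 6.68 and 10.9 CPM in cluster 5), Tgfbi (80.9 and 97.3 CPM, 567 and 440 CPM) and, in cluster 5, Fst (560 and 386 CPM) were not past 2-fold. At 4 d uHF.B had 2 of 6, Tgfb3 and Smad7 (all genes, 19.6%), and IFE cluster 0 had 1 of 6, Smad7 (all genes, 5.49%). With 1 library per time point these counts have no replicate check.

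The course over all 6 libraries was tested in 5 types with edgeR's quasi-likelihood test on a spline of hours with 3 degrees of freedom. Each p is for the whole spline, while the trend printed with it is the linear part alone. The direction of a trend was thus not tested on its own. None of the 38 pairs of gene and type was called after Benjamini-Hochberg adjustment over all genes. Few genes of any kind were called: 0.00909% in OB1, 0% in uHF.B, 0% in IFE cluster 0, 0% in IFE.SB and 0.0514% in T cells. At an unadjusted p under 0.05, 6 of 9 members passed in OB1, where 10.3% of all genes did, and 1 of 9 in uHF.B (all genes, 2.01%). DESeq2 called 3 pairs, all in OB1, where it called 4.84% of all genes. Tgfb3 in OB1 came closest, with a trend of 5.05 on the log2 scale over the time course and adjusted p = 0.054. On the log2(hours + 1) scale, 6 members were called in OB1, where 17.1% of all genes were. The trend was positive for Tgfb3 (6.21, adjusted p = 3.3e-05), Fstl1 (1.17, adjusted p = 5.1e-04) and Inhbb (2.48, adjusted p = 0.028). It was negative for Smad7 (-1.46, adjusted p = 0.0065), Tgfbi (-2.11, adjusted p = 0.0071) and Fst (-2.73, adjusted p = 0.024). The calls thus depended on the time scale, and on the library left out: 10 pairs were called without 0 h, 6 in OB1 (all genes, 20.2%) and 4 in uHF.B (7.13%). In OB1, 5 were called without 4 h (10.3%), 2 without 16 h (2.64%), 2 without 2 d (2.34%) and 1 without 4 d (1.92%).

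Between cell types, 52 of 100 pairs of gene and contrast were called. Against IFE cluster 0, OB1 differed in 8 of 10 members, 6 higher and 2 lower, where 37.9% of all genes were called. uHF.B also differed in 8 of 10, 6 higher and 2 lower (all genes, 21.1%), with Inhbb, Tgfb3, Inhba, Fst, Fstl1 and Smad7 higher and Tgfb1 and Tgfbi lower in both types. The OB1 call of Inhba rests on the 16 h library: without it the difference was -0.45 on the log2 scale. IFE.SB differed in 3 of 10, all lower (all genes, 42.4%), T cells in 6 of 10 (60.9%), Langerhans cells in 5 of 10 (52.5%), melanocytes in 4 of 10 (42.2%) and DP in 7 of 10 (35.2%). Against OB1, OB2 differed in 2 of 10 (17.4%), OB3 in 4 of 10 (5.98%) and IRS3 in 5 of 10 (18.8%). For Tgfb1 in DP, called lower, 2 of 3 libraries had a higher CPM than IFE cluster 0, and the call was lost with RLE size factors (-1.07 on the log2 scale, adjusted p = 0.089) and with DESeq2 (-0.97, adjusted p = 0.091). Contrasts against IFE cluster 0 share its libraries.

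The order of the 10 types by median level was tested between neighbours with an exact sign-flip test over the 6 libraries, two-sided, in 90 pairs, where the smallest possible p is 0.0312. 14 pairs reached it, and none passed after adjustment over the 90 pairs (smallest adjusted p = 0.201). The pairs at the smallest p, all higher in 6 of 6 libraries, included T cells over Langerhans cells and Langerhans cells over IFE cluster 0 for Tgfb1, OB3 over OB1 for Tgfb3, OB3 over uHF.B for Fst, Langerhans cells over OB1 for Skil, and T cells over Langerhans cells for Smad7. OB3 over melanocytes for Tgfb2 held in 5 of 6 libraries, 4 h being the exception (exact p = 0.0938). For Tgfbi, OB2, uHF.B, OB3 and OB1 followed each other at medians of 248, 226, 223 and 214 CPM without a difference beyond their spread (exact p of 0.5 or more).

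The other genes of the pathway were taken from lists of receptors, SMADs, activators of latent ligand, binding proteins and targets, 49 genes in all, of which 46 were tested. In OB1 against IFE cluster 0, 14 were higher, 10 lower and 22 not called, where 37.9% of all genes were called. Ltbp1 (4.32 ± 0.39) and Ltbp2 (8.45 ± 0.57), of the family named latent TGF-beta binding proteins, were among those higher. So were Itgb8 (6.28 ± 0.29), an integrin subunit that releases active TGF-beta, Ccn2, a TGF-beta target (8.59 ± 0.51), and Smad6, an inhibitory SMAD (4.49 ± 0.43). Of the 11 targets other than Ltbp2, 3 were higher, 5 lower and 3 not called. In uHF.B 7 were higher and 6 lower (all genes called, 21.1%), with Itgb8 (6.31 ± 0.29) and Ltbp1 (4.30 ± 0.38) again higher. OB3 and OB1 differed in 4 of 46: Ltbp1 (1.40 ± 0.35) and Itgb8 (1.05 ± 0.24) were higher in OB3, and Thbs1, an activator of latent TGF-beta (-2.50 ± 0.47), and Ltbp2 (-1.55 ± 0.50) lower. None of the 11 receptors was called between OB3 and OB1, where 5.98% of all genes were. Ltbp2 was listed both as a binding protein and as a target, and none of the 11 other targets was called.

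Among the receptors, Tgfbr2, the type II receptor of TGF-beta, was at a median of 255 CPM in T cells, 95.1 CPM in Langerhans cells, 48.6 CPM in IFE cluster 0, 23.8 CPM in uHF.B and 16.2 CPM in OB1. It was lower in OB1 than in IFE cluster 0 (-1.84 ± 0.25, adjusted p = 2.8e-09), and higher in T cells (1.92 ± 0.24, adjusted p = 9.4e-11). The co-receptor Tgfbr3 was lower in OB1 as well (-2.44 ± 0.23, adjusted p = 2.2e-14). Acvr1b, the activin type I receptor, was higher in OB1 (0.63 ± 0.19, adjusted p = 0.0066) and higher again in IRS3 than in OB1 (1.15 ± 0.25, adjusted p = 3.0e-04). Bambi, a pseudoreceptor without kinase activity, was higher than IFE cluster 0 in DP (3.85 ± 0.49), melanocytes (3.78 ± 0.42), T cells (2.64 ± 0.39), Langerhans cells (2.52 ± 0.43) and OB1 (1.56 ± 0.37).

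Over 79 sums of a type in a library, the gene most like Fst in log2(CPM + 1) was Gm47040 (Pearson r = 0.88), followed by Pthlh (r = 0.83) and Cxcl12 (r = 0.80). Gm47040 is an antisense gene that overlaps the 5′ end of Fst by 289 bases on the opposite strand (mm10, chr13:114458663-114462047), and the use of strand in counting is not given in the sources used here, so their reads may not be separable. Tgfbi was most like Col17a1 (r = 0.83), Fstl1 like Samd14 (r = 0.88), Smad7 like Sf3b1 (r = 0.84), Inhba like Lingo2 (r = 0.77), Tgfb1 like Tln1 (r = 0.76), Tgfb2 like Col5a2 (r = 0.74), Skil like Zswim6 (r = 0.72), Inhbb like Ndrg2 (r = 0.72) and Tgfb3 like Emid1 (r = 0.71). The sums share libraries and depth, so these values describe the samples only. Between the 10 genes themselves, the highest r was 0.64, for Tgfb1 and Smad7, and Tgfb2 and Tgfb3 had r = 0.38. Ttll5 overlaps Tgfb3, and antisense genes overlap Tgfb2 and Inhba.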

How the data were processed

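Single-cell RNA-seq libraries of mouse dorsal skin were made with a 10x Genomics Chromium 3′ kit. Per the submitters' processing notes, the authors used Cell Ranger 6.1.2 and mm10, and the deposited matrices hold UMI counts that were not normalized. The annotation and the use of intronic reads are not given in the sources used here. Library totals were 72634390 to 112370376 UMIs. Here, cells with 500 to 7000 genes and at most 10% mitochondrial UMIs were kept, 55177 of 61031 barcodes, and 4675 with the highest Scrublet scores (scanpy 1.11.5; 0.8% per 1000 barcodes) were removed as doublets. Libraries were integrated with Seurat 5.3.0 on 2000 variable genes and 30 components, and clustered at a resolution of 0.2, then 0.4 for HF cells, without 684 genes (the 10 genes, the pathway lists and genes tied to the cell cycle). Clusters were named from marker lists. Sums per type and library with at least 20 cells were tested with edgeR 4.0.16 in R 4.3.3 (TMM, quasi-likelihood, robust; FDR 0.05). The time course used a natural spline of hours, and contrasts used the library as block. Intervals for levels are exact Poisson and for shares exact Clopper-Pearson, 95%, and cover counting error only. The edgeR steps were tested on simulated data. Alternatives were the time scale, normalization, DESeq2 1.42.0, count filters, leaving out each library, a resolution of 0.8 for HF cells, doublets kept, pseudocounts and thinning.

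The genes, the pathway lists, the markers and the tests were chosen with earlier results of these data known. Named genes were the 10 members, for each the 3 genes with the highest r, receptors by role and up to 5 called pathway genes per contrast. Gene positions come from GENCODE M21 on mm10. The sign-flip p-values measure the spread between libraries of different time points, each of 1 pool of 2 mice. Contrast p-values come from a joint fit of all 79 sums, and their spread is shared over the 16 types. Sums of the same pool count as separate observations in that fit. Time-course p-values rest on what the spline leaves over.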

Additional observations from a re-analysis of the deposited data

Results flagged for a closer look

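Tgfb1 at 4 h against 0 h moved in opposite ways in IFE cluster 0 (0.43 on the log2 scale of CPM + 1) and in OB1 (-1.41), with Poisson intervals that did not overlap between the libraries in either type. Tgfbi at 4 h against 0 h was likewise lower in OB1 (-0.34) and higher in uHF.B (0.99). With 1 library per time point, neither difference between cell types was tested. The make-up of OB1 differed between these libraries: cluster 5 held 84.4% of OB1 cells at 0 h and 35.1% at 4 h, and cluster 10 0.317% and 49.2%. The Tgfbi level of cluster 5 was 567 and 481 CPM, while cluster 1 had 80.9 and 239 CPM. Tgfb1 was lower at 4 h in both, with 84.1 and 14.9 CPM in cluster 1 and 23.4 and 8.81 CPM in cluster 5. Its intervals overlapped in cluster 5 only. Cluster 10, with 1 cell at 0 h, had 352 CPM of Tgfbi and 13.8 CPM of Tgfb1 at 4 h. The part of this make-up in the OB1 values was not tested.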

How the results depend on the processing

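Against 0 called pairs of gene and cell type on the scale of hours, 6 were called on log2(hours + 1), 5 on the rank of the time point, 3 by DESeq2 and 1 without a filter on low counts, and 0 to 10 when each library was left out. RLE size factors, a resolution of 0.8 and keeping doublets gave 0. Of the 52 called contrasts, 43 to 51 kept their call under the other settings and 34 to 49 without each library in turn. The count was lowest without 4 d and 6 d, where fewer contrasts could be fitted. Of 20 shares of cells with a UMI, recomputed with 1000 UMIs or no thinning, 13 moved by more than the spread between libraries. The 21 genes past 2-fold became 16 to 25. Of single contrasts over all settings, 534 kept their call, 45 lost it and 2 reversed. Inhba in OB1 against IFE cluster 0 ranged from -0.45 (without 16 h) to 3.49 over the libraries left out, and Tgfb3 in IRS3 against OB1 was 0.46 at a resolution of 0.8, where IRS3 gained a cluster of 1514 cells led by Col14a1. The cause was not tested. With doublets kept, the DP contrast had too few libraries. Cell types were compared within libraries, and 43 pairs were called without the library block. Between time points, no paired analysis was possible because each is 1 library. Low counts limit Inhba, Tgfb3 and Fstl1 outside their main types.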
